A study of Mus musculus with 4 samples.

Results

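The 10 genes described here encode the classical and nonclassical heavy chains of the mouse major histocompatibility complex (MHC) class I, their light chain, and the machinery that supplies them with peptides. They were chosen by name: 5 H2 heavy chain genes (H2-K1, H2-D1, H2-Q10, H2-Q4 and H2-T23), and 5 partner genes (B2m, Tap1, Tap2, Psmb8 and Psmb9). All 10 were found among the 8797 genes listed in the liver mRNA tables, and all 10 also had a B6-allele frequency, which was given for 3632 genes. Livers came from 4 female F1 mice, 5 months old, without treatment named in the labels. MB mice (n = 2) were born to MSM mothers sired by B6, and BM mice (n = 2) to B6 mothers sired by MSM. B6 (C57BL/6J) and MSM (MSM/Ms) are inbred strains of different subspecies, so every mouse of both crosses carried a complete B6 and a complete MSM chromosome set in the same cells. Expression was measured in FPKM (fragments mapped to a gene, scaled by transcript length and library size), and the B6-allele frequency is the B6 part of all reads that could be assigned to an allele, from 0 to 1, where 0.5 is equal use. Read counts are not in these values, so the depth behind a frequency is unknown and no interval was set on a single one.

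MHC class I molecules display peptides from inside the cell to CD8 T cells and natural killer cells. Proteins are cut by the proteasome, in which Psmb8 and Psmb9 replace constitutive catalytic subunits after interferon exposure. The Tap1-Tap2 transporter carries the peptides into the endoplasmic reticulum, where they are loaded onto a heavy chain paired with beta-2-microglobulin, the product of B2m. Nearly all nucleated cells express class I, and hepatocytes also secrete the product of H2-Q10. The classical H2-K1 and H2-D1 are among the most polymorphic genes of the mouse, whereas H2-T23 encodes Qa-1, which presents leader peptides of other class I molecules.

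Of the 10 genes, 9 lie on chromosome 17 and B2m lies on chromosome 2. The sequences before the start sites are shown because those of H2-K1, H2-D1, H2-Q10 and H2-Q4 are related copies within 1 locus. Whether these sequences bear on allele use was not tested. RefSeq sequence (GRCm38.p6, the mm10 build) was found for 9 of the 10 genes, and Tap2 was the exception. For 7 genes, the 200 bases before the start site are given 5′ to 3′ on the gene's strand, with exact motif matches in capitals: GGGATTCCC, the core of a kB site bound by NF-kB; TTTCACTT, the core of the interferon-stimulated response element of class I promoters; TTTCNNTTTC, a paired form of this element; and TGACGC, a core resembling the X2 box. GENCODE places the outer end of H2-D1, H2-T23, Psmb9 and Psmb8 farther upstream, so those starts differ between annotations.
H2-K1, chr17:34000348-34000547, minus strand: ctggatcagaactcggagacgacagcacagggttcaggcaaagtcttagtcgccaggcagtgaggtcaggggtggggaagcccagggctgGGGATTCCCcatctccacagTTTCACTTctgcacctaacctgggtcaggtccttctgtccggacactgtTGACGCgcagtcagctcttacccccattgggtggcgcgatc
H2-D1, chr17:35262894-35263093, plus strand: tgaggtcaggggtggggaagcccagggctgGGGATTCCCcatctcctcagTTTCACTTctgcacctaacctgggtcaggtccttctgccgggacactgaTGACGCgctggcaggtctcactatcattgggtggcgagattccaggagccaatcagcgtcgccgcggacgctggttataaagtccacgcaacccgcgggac
H2-Q10, chr17:35469889-35470088, plus strand: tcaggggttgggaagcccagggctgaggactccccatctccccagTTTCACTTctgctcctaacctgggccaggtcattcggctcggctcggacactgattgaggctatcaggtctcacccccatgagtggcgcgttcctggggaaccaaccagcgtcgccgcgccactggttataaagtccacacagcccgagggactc
H2-Q4, chr17:35379417-35379616, plus strand: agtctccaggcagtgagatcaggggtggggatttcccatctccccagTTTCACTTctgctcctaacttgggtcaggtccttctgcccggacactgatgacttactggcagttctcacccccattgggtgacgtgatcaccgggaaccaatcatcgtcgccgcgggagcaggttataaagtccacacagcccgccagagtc
H2-T23, chr17:36032702-36032901, minus strand: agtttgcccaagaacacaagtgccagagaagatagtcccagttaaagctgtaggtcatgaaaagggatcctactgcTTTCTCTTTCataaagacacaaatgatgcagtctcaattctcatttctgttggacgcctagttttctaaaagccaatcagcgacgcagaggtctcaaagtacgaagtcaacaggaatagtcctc
B2m, chr2:122147487-122147686, plus strand: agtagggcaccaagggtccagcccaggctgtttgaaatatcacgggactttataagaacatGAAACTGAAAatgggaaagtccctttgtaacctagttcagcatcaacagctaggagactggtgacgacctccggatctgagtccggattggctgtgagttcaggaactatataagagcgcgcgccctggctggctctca
Tap1, chr17:34187356-34187555, plus strand: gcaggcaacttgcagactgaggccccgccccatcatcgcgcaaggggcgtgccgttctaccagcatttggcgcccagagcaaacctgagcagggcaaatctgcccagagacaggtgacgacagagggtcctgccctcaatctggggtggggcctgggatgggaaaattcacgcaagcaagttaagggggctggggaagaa

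Searched on both strands, GGGATTCCC occurred in 0.213% of 32851 promoter windows of this length, TTTCACTT in 1.03%, TTTCNNTTTC in 2.27% and TGACGC in 5.37%. H2-K1 and H2-D1 were the members that held GGGATTCCC, TTTCACTT and TGACGC together, in that order and with the same spacing. Of the motifs searched, H2-Q10 and H2-Q4 held TTTCACTT alone. Only exact letters were matched, so close variants, such as gggatttccc in H2-Q4, are not counted, and absence of a match does not show absence of a site. H2-T23 held TTTCTCTTTC, and the match in B2m, GAAACTGAAA, reads as TTTCNNTTTC on the opposite strand. The windows of Tap1, Psmb9 and Psmb8 held none of these letters, which says nothing of the factors that bind there. H2-K1 and H2-D1 were identical at 90.7% of 140 aligned bases, H2-D1 and H2-Q10 at 86.4% of 191, and H2-Q10 and H2-Q4 at 81.2% of 191. The window of H2-T23 aligned with those of the other heavy chain genes over at most 20 bases, so no identity is given for it. H2-K1 has a second RefSeq start site nearby, whose window held the same matches. Tap1 and Psmb9 are transcribed away from each other, and their windows share 175 bases. These are B6 reference sequences, and the MSM sequence was not analysed here.

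The levels of the 10 genes spanned from 2103 to 7.48 FPKM. B2m stood highest, at 2103 and 1464 FPKM in MB replicates 1 and 2 and 1747 and 1835 FPKM in BM replicates 1 and 2 (1787 ± 263, SD, n = 4). H2-Q10, the secreted heavy chain, followed with 1283, 1004, 1083 and 1046 FPKM in the same order of mice (1104 ± 124). H2-K1 had 489.8, 392, 439 and 448 FPKM (442 ± 40.3). These ranges did not overlap between neighbours, so B2m, H2-Q10 and H2-K1 kept this order in every mouse. H2-D1, the other classical heavy chain, had 274, 232, 281 and 292 FPKM (269.7 ± 25.9). H2-T23 had 134, 104, 129 and 154 FPKM (130.1 ± 20.5). Levels of the remaining members were lower, all under 40 FPKM. Psmb8 had 38.3, 28.0, 39.7 and 37.0 FPKM (35.8 ± 5.29). H2-Q4, a nonclassical heavy chain, had 19.2, 18.3, 24.1 and 22.03 FPKM (20.9 ± 2.66). Tap2 had 17.0, 17.2, 22.2 and 18.8 FPKM (18.8 ± 2.42). Psmb8 stood above H2-Q4 without overlap, whereas the ranges of H2-Q4, Tap2, Psmb9 and Tap1 over the 4 mice overlapped between neighbours. Within a mouse, H2-Q4 was above Tap2 and Psmb9 above Tap1 in 4 of 4 mice, and Tap2 above Psmb9 in 3 of 4. Psmb9 had 19.5, 12.2, 21.6 and 17.0 FPKM (17.6 ± 4.07). Tap1 had 9.37, 7.48, 18.5 and 9.81 FPKM (11.3 ± 4.93), and BM replicate 1 stood apart from the other 3 mice.

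**Figure D1:**
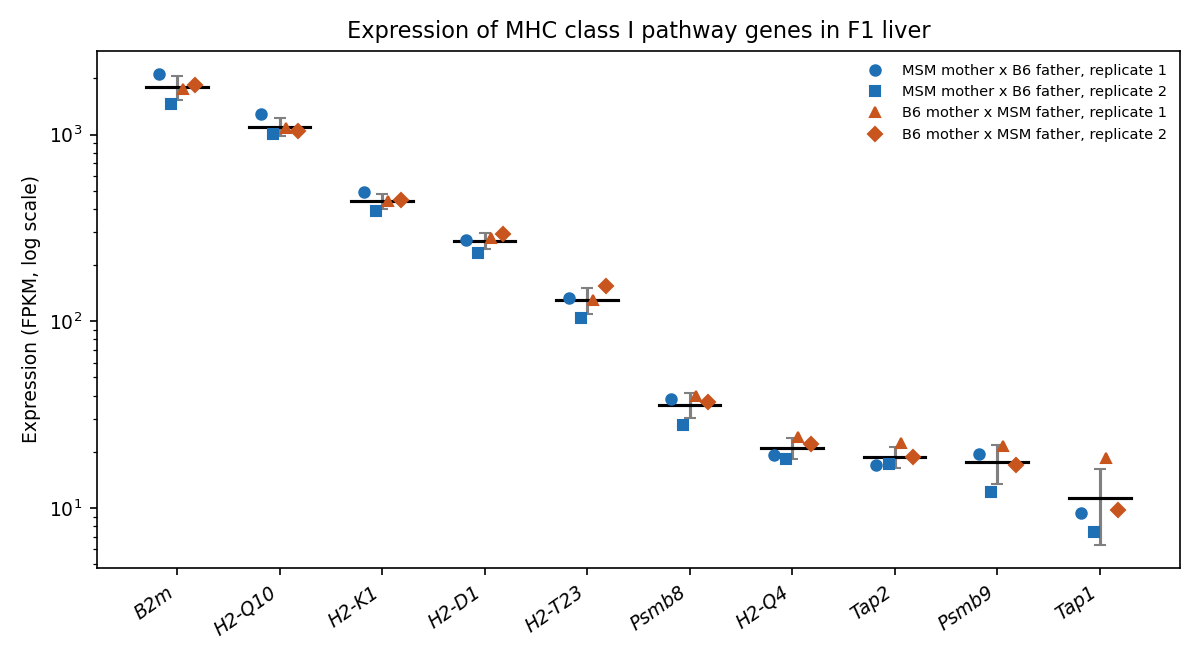
Expression of the 10 genes in FPKM on a log axis, with a point for each of the 4 mice, a black line at the mean and grey bars for the SD. B2m, H2-Q10, H2-K1, H2-D1, H2-T23 and Psmb8 separate in this order, whereas H2-Q4, Tap2, Psmb9 and Tap1 overlap with their neighbours.

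Ratios were also taken within each mouse. H2-Q10 stood at 2.50 ± 0.12 times the FPKM of H2-K1 (SD, n = 4), and H2-K1 at 1.64 ± 0.12 times that of H2-D1. H2-Q10 alone made up 56.1% ± 2.22 of the summed FPKM of the 5 heavy chain genes. B2m, the light chain shared by all of them, amounted to 0.905 ± 0.053 of that sum. Psmb8 stood at 2.07 ± 0.21 times Psmb9. Tap2 stood at 1.81 ± 0.46 times Tap1, with the lowest ratio, 1.20, in BM replicate 1.

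The allele-assigned reads of the 5 heavy chain genes ranged from nearly all B6 to equal shares. In these shares, lost reads of a divergent MSM allele cannot be told apart from a low MSM transcript level. Of the 5, 4 departed from equal use toward B6, and H2-Q10 was not called. Among the 5 partner genes, Tap2 was called, toward MSM. Thus 5 of the 10 genes differed from 0.5 (limma on the log2 odds, Benjamini-Hochberg adjusted p under 0.05 over 3632 genes), against 36.2% of all genes tested. The 4 genes toward B6 compare with 22.6% of all genes (822 genes), and the 1 gene toward MSM with 13.6% (494 genes). With each mouse centred on its median, 705 of all genes were called toward B6 and 604 toward MSM. Over the 10 genes the median log2 odds was 0.17, and over all genes tested it was 0.06. The calls of H2-D1, H2-Q4 and Tap2 did not hold with every single mouse left out, as given below.

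H2-K1 (chr17:33996017-34000347) was the most skewed member. Its B6-allele frequency was 0.989 and 0.992 in the MB mice and 0.992 and 0.9899 in the BM mice (0.991 ± 0.0014, SD, n = 4). Both crosses gave nearly the same value, so assigned reads were nearly all B6 whether the B6 allele came from the father or the mother. The log2 odds was 6.60 (SE 0.05, adjusted p = 4.62e-05), after frequencies were limited to 0.99, and 4.25 with a limit of 0.95. With FPKM split by this frequency, the B6 part of H2-K1 was 484, 389, 435 and 443 FPKM, and the MSM part was 5.29, 3.05, 3.72 and 4.54 FPKM. H2-K1 was the only member at or above 0.8 in every mouse, a level reached by 1.21% of all genes, and with H2-Q4 it was at or above 0.8 in the mean, as were 1.84% of all genes. The 3 genes outside this group whose frequencies over the 4 mice were most like those of H2-K1, by root mean square difference, were Cyp4a14 at 0.00354, Glt1d1 at 0.00501 and Slc3a1 at 0.00511. Reads of a divergent MSM allele that could not be placed on the B6-based genome and a low MSM transcript level cannot be told apart in these values, for H2-K1 and for the other heavy chain genes.

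H2-D1 (chr17:35262730-35267499) stood far closer to equal use than H2-K1. Its B6-allele frequency was 0.568 and 0.587 in the MB mice and 0.538 and 0.557 in the BM mice (0.562 ± 0.0203). All 4 mice were above 0.5. The log2 odds was 0.36 (SE 0.05, adjusted p = 0.0188), and the call was lost when any mouse was left out, with adjusted p between 0.0702 and 0.106, and with the replicate number as a block (adjusted p = 0.0507). The B6 part was 156, 136, 151 and 162 FPKM, and the MSM part was 118, 96.0, 130 and 129 FPKM. As a sum, 82.8% ± 1.34 of the FPKM of the classical genes H2-K1 and H2-D1 was assigned to B6 (SD, n = 4).

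H2-Q10 (chr17:35470089-35474563), the most abundant heavy chain, was used almost equally. Its B6-allele frequency was 0.493, 0.4903, 0.471 and 0.4895 in MB replicates 1 and 2 and BM replicates 1 and 2 (0.486 ± 0.00987). The log2 odds was -0.08 (SE 0.05, 95% interval -0.22 to 0.06, adjusted p = 0.25). Both alleles thus gave between 492 and 651 FPKM in every mouse. With H2-Q10 included, 62.8% ± 0.897 of the summed FPKM of the 5 heavy chain genes was assigned to B6.

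H2-T23 (chr17:36029773-36032855), which encodes Qa-1, had B6-allele frequencies of 0.739 and 0.746 in the MB mice and 0.686 and 0.674 in the BM mice (0.711 ± 0.0366). All mice favoured B6, and both MB mice stood above both BM mice. The log2 odds was 1.31 (SE 0.05, adjusted p = 0.00242), and the call was kept when any mouse was left out. An annotated gene overlapping H2-T23, A930015D03Rik, had a mean frequency of 0.369 at 2.55 FPKM and was not called (log2 odds -0.79, SE 0.27, adjusted p = 0.104).

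H2-Q4 (chr17:35379617-35385290) had the widest spread of listed B6-allele frequencies among the heavy chain genes. Its B6-allele frequency was 1.00 in both MB mice, 0.750 in BM replicate 1 and 0.5 in BM replicate 2 (0.812 ± 0.239). The MB mice were listed with the B6 allele alone, and the BM mice spread from equal use to a B6 excess. With frequencies of 1.00 held at 0.99, the log2 odds was 3.71 (SE 0.31, adjusted p = 0.00793), and the call was lost without MB replicate 1 (adjusted p = 0.0549) or MB replicate 2 (adjusted p = 0.0536). The value moved with these limits, to 5.38 with wider and 2.52 with narrower ones. Its SD between mice was the 72nd highest of the 3632 genes. The number of allele-assigned reads is unknown, so few such reads and varying allele use cannot be told apart for H2-Q4.

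**Figure D2:**
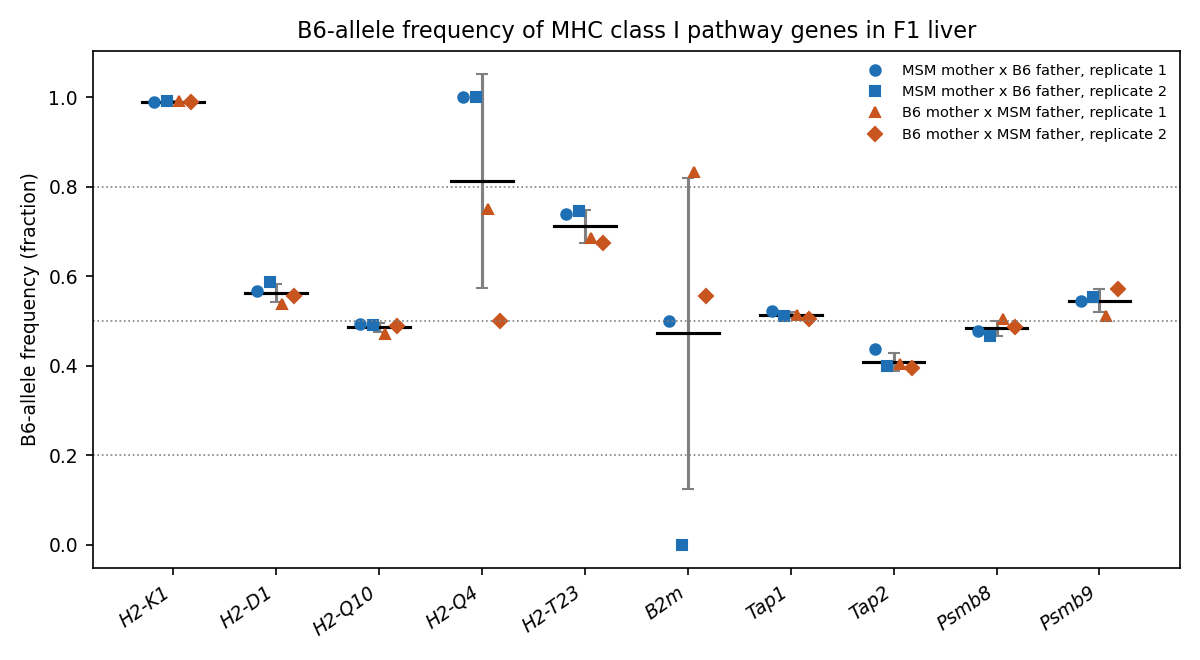
B6-allele frequency (fraction of allele-assigned reads) of the 10 genes, with a point for each of the 4 mice, a black line at the mean and grey bars for the SD; dotted lines mark 0.2, 0.5 and 0.8. H2-K1 sits at 0.991 with almost no spread, H2-Q10, Tap1 and Psmb8 lie near 0.5, and H2-Q4 and B2m spread widely.

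B2m (chr2:122147686-122153083) had the widest spread of listed B6-allele frequencies among the partner genes. Its B6-allele frequency was 0.5 and 0 in the MB mice and 0.833 and 0.556 in the BM mice (0.472 ± 0.347). No direction was shared by the 4 mice, and the SD was the 40th highest of the 3632 genes. The log2 odds was -0.996 (SE 1.34, adjusted p = 0.589), so these mice do not fix its allele use. FPKM does not give the number of allele-assigned reads, so few such reads and varying allele use cannot be told apart here.

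The transporter genes differed slightly from each other. Tap1 (chr17:34187553-34197225) had frequencies of 0.523, 0.510, 0.514 and 0.505 (0.513 ± 0.00743), and its log2 odds was 0.08 (SE 0.04, 95% interval -0.06 to 0.21, adjusted p = 0.256). Tap2 (chr17:34203527-34216321) had frequencies of 0.438, 0.398, 0.403 and 0.396 (0.409 ± 0.0195), below 0.5 in every mouse. Its log2 odds was -0.53 (SE 0.06, adjusted p = 0.0132), and the call was lost without MB replicate 2, BM replicate 1 or BM replicate 2 (adjusted p = 0.0534, 0.0888 and 0.091).

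Neither immunoproteasome subunit passed the test. Psmb8 (chr17:34197721-34201454) had frequencies of 0.477, 0.466, 0.505 and 0.487 (0.484 ± 0.0166), with a log2 odds of -0.09 (SE 0.05, adjusted p = 0.206). Psmb9 (chr17:34181987-34187764) had frequencies of 0.544, 0.553, 0.511 and 0.572 (0.545 ± 0.0257), with a log2 odds of 0.26 (SE 0.08, adjusted p = 0.0901).

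Genes outside the MHC families lay near equal use throughout the region that holds H2-K1. Between 100 kb outside H2-K1 and 100 kb outside H2-T23, 48 genes that belong to neither MHC class nor to the 10 members had a frequency. Their means ran from 0.354 (Dxo) to 0.641 (Atat1), with a median of 0.502, and 44 of the 48 were between 0.4 and 0.6, as were 79.0% of all 3632 genes. Close to H2-K1, H2-Ke6 was at 0.495, Rps18 at 0.514 and Tapbp, which encodes the loading factor tapasin, at 0.521. The 4 members Psmb9, Tap1, Psmb8 and Tap2 were within 0.4 to 0.6, as were 2 of the 5 heavy chain members. The other class I genes placed in the region by the annotation were all outside it (5 of 5), with means from 0.254 for H2-K2 to 0.712 for H2-Q5. Of these, H2-K2 is annotated as a pseudogene, and H2-Q5 and H2-T10 as polymorphic pseudogenes. H2-T9, with a mean of 0.819, had no position under this name and is not counted here. For H2-Q2 and H2-T10 these were means of mice on both sides of 0.5, at 2.62 and 2.80 FPKM, and neither was called (adjusted p = 0.24 and 0.22). H2-K2, the gene copy next to H2-K1, was skewed toward MSM (log2 odds -1.56, SE 0.12, adjusted p = 0.007). The class II family, whose classical molecules present extracellular peptides, had 7 genes, of which 5 were outside 0.4 to 0.6. These included H2-DMb1 and H2-DMb2, at 2.83 and 2.68 FPKM. H2-Eb1 was at 0.998, and H2-Ea-ps, the Ea gene that B6 mice are known not to express, was at 0 in all 4 mice.

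**Figure D3:**
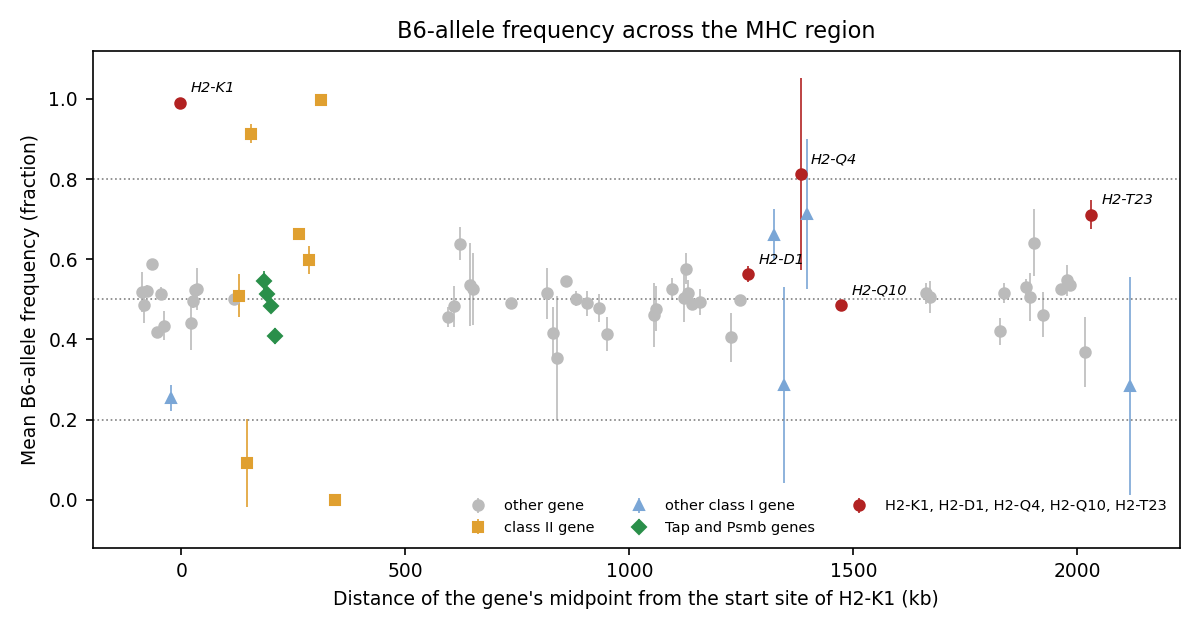
Mean B6-allele frequency (fraction, n = 4 mice, bars for the SD) against the distance in kb of each gene's midpoint from the start site of H2-K1. Genes outside the MHC classes lie between 0.354 and 0.641, whereas heavy chain and class II genes spread from 0 to 0.998.

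Related sequence bears on these heavy chain values, since the aligner reported at most 1 place per read. The reference transcripts of H2-K1 and H2-D1 were identical at 87.5% of aligned bases, and the other pairs of the 5 at 73.9% to 77.9%. Of all 150-base windows of a transcript, the length of a read, 1.79% of those of H2-D1 occurred exactly in another class I gene (H2-Q1) and 0.831% of those of H2-T23 (in Gm7030). None of those of H2-K1, H2-Q10 or H2-Q4 did, and none of B2m, Tap1, Tap2, Psmb8 or Psmb9. The class I genes H2-L, H2-Q8, H2-Q9 and H2-T9 had FPKM values but no GENCODE M21 entry under these names. Windows shared with them may therefore be missed. At 75 bases, the shares of the heavy chain genes were between 1.55% for H2-K1 and 6.9% for H2-D1 in other class I genes. In any other gene they reached 13.1% for H2-T23 and 7.91% for H2-Q4. Only exact windows of B6 reference transcripts were matched, so reads of MSM alleles and placements with mismatches are not covered. The part of shared sequence in the frequencies was not tested.

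The reciprocal crosses address whether allele use follows the parent of origin. For the B6-allele frequency, none of the 10 genes differed between MB and BM (limma, adjusted p under 0.05), against 0.0826% of all genes, and 2 of the 10 had an unadjusted p under 0.05, against 5.23% of all genes. These were H2-Q4 (log2 odds difference 5.84, SE 0.62, adjusted p = 0.498, but 9.17 or 3.46 with wider or narrower limits on the frequency) and H2-T23 (0.44, SE 0.09, adjusted p = 0.829), both higher with an MSM mother. With 2 mice against 2, an exact permutation test of a single gene could not go below p = 0.333. The frequencies of the crosses did not overlap for H2-D1, H2-Q10, H2-Q4 and H2-T23, higher with an MSM mother (18.4% of all genes), nor for B2m and Psmb8, higher with a B6 mother (15.9% of all genes). H2-K1 had a log2 odds difference of -0.05 (MB minus BM), with a 95% interval from -0.32 to 0.23.

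Expression of the 10 genes did not pass the test between the crosses either (limma on log2(FPKM + 1), 0.0455% of all genes called). The estimate was below 0 (lower in MB than in BM mice) for 9 of the 10, as for 45.9% of all 8797 genes, with a median log2 difference of -0.23, against 0.02 over all genes. This count rested on MB replicate 2, without which it was 5 of 10 with a median of -0.03. In the other settings tried it was 8 to 10 of 10, with 10 and a median of -0.29 under quantile normalization. The summed FPKM of all genes was 671875 in MB replicate 1 and 539647 in MB replicate 2. It was 529024 and 572780 in BM replicates 1 and 2. H2-K1 (-0.02, SE 0.18) and B2m (-0.03, SE 0.24) had nearly equal means in the crosses, and H2-Q10 had 0.09 (SE 0.20). No member had an unadjusted p under 0.05, against 8.87% of all genes. The FPKM of the crosses did not overlap for H2-D1, H2-Q4, Tap1 and Tap2, all higher in BM mice, as in 19.4% of all genes, and for no member in the other direction, as in 23% of all genes. Tap1 had an estimate of -0.63 (SE 0.28, adjusted p = 0.578), with BM replicate 1 far above the other mice. It was -0.21 without BM replicate 1 and -1.06 without BM replicate 2. With the replicate number as a block, Tap1 was called (adjusted p = 0.0146), and so were 3.24% of all genes.

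**Figure D4:**
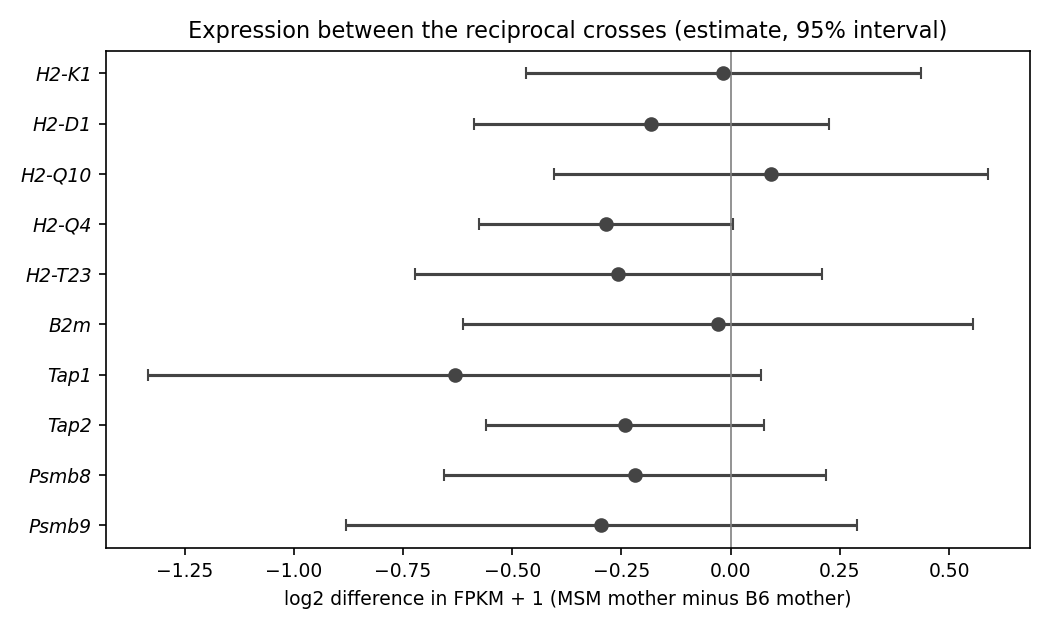
The log2 difference in FPKM + 1 between the crosses (MSM mother minus B6 mother) for the 10 genes, with 95% intervals from limma. The estimates lie from -0.63 for Tap1 to 0.09 for H2-Q10, and every interval includes 0.

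Values of other interferon-response genes and of cell type markers stand beside these differences. Of 20 interferon-response genes 12 were listed, and 0 of the 12 were called (limma, smallest adjusted p = 0.34). The estimates of all 12 were below 0, with a median log2 difference of -0.55, and 9 had an unadjusted p under 0.05, beside the 45.9% and 8.87% of all genes given above. Their summed FPKM was 363 and 280 in the MB mice and 447 and 366 in the BM mice. Irf1, an activator of class I transcription, had a log2 difference of -0.89 (SE 0.27, adjusted p = 0.471), whereas Nlrc5, the class I transactivator, had -0.10 (SE 0.18). Irf1 stood at 36.7 FPKM in BM replicate 1, the mouse in which Tap1 was high. The class II and invariant chain genes listed as antigen presenting cell markers (4 of 6 listed) summed to 196 and 166 FPKM in MB mice and 356 and 287 FPKM in BM mice. Kupffer cell markers (3 of 5 listed) summed to 104 and 95.3 FPKM in MB mice and 133 and 126 FPKM in BM mice, and markers of the sinusoidal endothelium (5 of 5 listed) to 108, 99.2, 113 and 119 FPKM. None of 6 T and NK cell markers and none of 4 B cell markers were listed. The part of the cell mixture in the class I values was not tested, and in whole liver more cells of a type and more RNA per cell cannot be told apart. Of 5 hepatocyte markers 4 were listed, of which Cyp2e1 was at 0 FPKM in both MB mice. Its B6-allele frequencies there were 0.516 and 0.546, so reads were present and the 0 is not a measured level. It was nevertheless called between the crosses (limma, adjusted p = 4.71e-06). Without Cyp2e1 the hepatocyte markers summed to 12263 and 12125 FPKM in MB mice and 7785 and 10600 FPKM in BM mice. This was the opposite direction to the markers of the other cell types.

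The allele use of other pathway genes was taken from fixed lists, beside the 36.2% called among all genes. Among the 4 class I and class I-like genes of the list with a frequency, H2-Q1 was higher from B6 (log2 odds 0.98, SE 0.18, adjusted p = 0.0333) and Azgp1, a soluble class I-like protein, from MSM (-0.20, SE 0.04, adjusted p = 0.0413). None of 4 peptide loading genes was called, including Tapbp (0.12, SE 0.05, adjusted p = 0.132), Pdia3 (0.17, SE 0.06, adjusted p = 0.099) and Calr (1.76, SE 2.84, adjusted p = 0.65). Outside this list, the class I genes H2-Q5 (1.54, SE 0.21, adjusted p = 0.0188) and H2-T9 (2.18, SE 0.06, adjusted p = 0.00187) were called toward B6, and H2-K2 toward MSM as given above; these were added after their values were seen. Of 3 other proteasome genes, Psmb10, the remaining inducible catalytic subunit, was called toward B6 (0.98, SE 0.13, adjusted p = 0.0163). Of 7 interferon-response genes, Gbp7 and Oasl1 were called toward B6 and Stat2 toward MSM. In expression between the crosses none of these lists held a called gene. Psmb10 had a log2 difference of -0.50 (SE 0.17, adjusted p = 0.524), Tapbp of -0.40 (SE 0.16, adjusted p = 0.557) and Erap1, which trims peptides, of -0.17 (SE 0.13, adjusted p = 0.685).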

How the data were processed

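The mRNA of 4 livers was analysed. The reads were trimmed by the authors (Trim Galore!) and placed with Tophat2, at most 1 place per read, on the mm10 genome whose SNP sites had been masked; expression was deposited in FPKM. They separated alleles with SNPsplit, counted them with Cuffdiff and deposited the B6-allele frequency, a fraction from 0 to 1. Tool versions are not given in the sources used here. No read counts accompany the values, so depth is unknown.

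Each frequency was held within 0.01 to 0.99 before its log2 odds were taken. In limma 3.58.1 (R 4.3.3), the average over the crosses was compared with 0, and the cross term gave MB minus BM. Expression was tested with a variance trend on log2(FPKM + 1) where the mean FPKM was 1 or more, a scale that compresses changes of low genes. All p-values are two-sided, were adjusted by Benjamini-Hochberg across every gene tested, and were called under 0.05. Nothing in the labels says whether the mice of a cross were littermates, so p-values concern these mice alone. They rest on the spread between these mice, which limma moderates over all genes. For genes near either limit, the limits on the frequency also enter that spread. For H2-K1 the SE of the log2 odds was 0.05, and 0.11 with limits of 0.001 to 0.999. In simulations that changed 200 genes with independent noise, the imbalance test recovered 184 of 200 (log2 odds 2, 3632 genes) with 10 false calls. The cross test recovered 192 of 200 (log2 odds 6, 3632 genes) with 11 false calls, and the expression test 170 of 200 (log2 fold 2, 8797 genes) with 5. Between the crosses of the real mice, 3 and 4 genes were called, and the members' estimates were smaller than the changes set. These shares therefore do not give the recovery to be had for the members.

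Positions and transcripts came from GENCODE M21 and promoters from RefSeq, both of mm10. Motifs, windows and alignments were computed in Python 3.11.15 with Biopython 1.88, pandas 2.3.3 and numpy 2.4.6, and plots with matplotlib 3.10.9. Named are the 10 members, the called genes of the lists and a few fixed pathway genes, neighbours within 100 kb, and the 3 genes most like H2-K1. The region from H2-K1 to H2-T23, the limits of 0.4 and 0.6, and Irf1 were chosen after values were seen. The members and lists were chosen with earlier results of these data known. Other limits, scales, centrings, filters, pseudocounts, normalizations and window lengths, a fit blocked on replicate number, and leaving out single mice were tried as alternatives.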

Additional observations from a re-analysis of the deposited data

How the results depend on the processing

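Departure from equal allele use was called for 1316 genes, for 850 with a mean FPKM of at least 10 and for 775 with the replicate block, and for 181 to 514 with 1 mouse left out, where fewer mice enter the fit. Of the members, 5 were called, and 2 to 3 with 1 mouse left out. H2-K1 and H2-T23 were called under every alternative run. For the allele frequency between the crosses, 3 genes were called, 1 with wider limits on the frequency, 1 with a mean FPKM of at least 10, and 0 to 6 with 1 mouse left out, and no member was called under any alternative. For expression between the crosses, 4 genes were called, 13 to 21 with 1 mouse left out and 285 with the replicate block, under which 1 member, Tap1, was called. Same-numbered mice deviated together with r of 0.15 for log2 odds and 0.00 for log2 FPKM, over 2 pairs, so the numbers are not shown to pair the mice, and the block is given only as an alternative. The ratio of B2m to Tap1 was 158, and 141 to 203 with 1 mouse left out. The median share of heavy chain windows found in other class I genes was 0% at 150 bases and 4.64% at 75 bases. The cause of these changes was not tested. The spread between mice was widest for H2-Q4 and B2m among the members, the number of reads behind their frequencies is unknown, and the B2m log2 odds, not called, turned positive without MB replicate 2.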
